A study of Caenorhabditis elegans with 16 samples.

Results

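The splicing genes *prp-31*, *ccdc-12* and *hrpa-1* were followed in mixed-stage *Caenorhabditis elegans* embryos that carry or lack the F-box gene *fbxa-215*. They are 3 of the 21882 genes in the deposited tables and were chosen because their counts were higher in the mutant at both growth temperatures. The mutant against wild-type values below are therefore a description and were not tested. Splicing removes introns from new transcripts and is carried out by the spliceosome, which assembles from small nuclear ribonucleoproteins (the U1, U2 and U4/U6.U5 particles) and accessory proteins and is steered by RNA-binding regulators. The homologue of *prp-31* in humans and yeast, PRPF31 or Prp31, holds the U4/U6 particle to the U5 particle in the tri-snRNP, and mutations in the human gene cause a retinal degeneration. CCDC12, the human homologue of *ccdc-12*, is a protein of the activated spliceosome. *hrpa-1* encodes a protein of the hnRNP A family, whose members bind pre-mRNA and influence the choice of splice sites.

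The embryos came from wild-type N2 worms or from strain SX3678, which carries *fbxa-215(syb4404)*, an allele that lacks the whole coding sequence, and was outcrossed 4 times with N2. Embryos were released by bleaching gravid adults kept at 20 °C for about 56 h, or at 25 °C for about 47 h, from plating as larvae. Each of the 4 groups held 4 libraries of polyadenylated RNA, 16 in all, and the mutant groups stand for 1 strain and 1 allele. The temperature, the time on plates and the batch of collection went together, so their effects cannot be told apart. Nothing in the labels says that the replicates were separate cultures, so p-values measure the spread between these samples, which may be technical.

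Library totals ranged from 10001670 to 16777296 estimated counts. Levels are given as CPM, the count of a gene relative to the scaled total of its library. In wild type, *fbxa-215* transcripts averaged 233 ± 7.22 CPM at 20 °C (SD, n = 4) and 159.7 ± 8.44 CPM at 25 °C, and no mutant library held more than 1 count of the gene. Late differentiation markers such as *unc-54* and *myo-3*, muscle myosin genes, summed to 2349 to 2670 CPM in wild type and 2016 to 2383 CPM in mutants at 20 °C, and to 5012 to 5531 CPM and 4539 to 5216 CPM at 25 °C. Maternal markers summed to 4433 to 4619.7 CPM and 4269 to 4443 CPM at 20 °C, and to 3084 to 3508 CPM and 3597 to 3803 CPM at 25 °C. Early zygotic markers such as *end-1*, which the stage score used below leaves out, had slightly higher sums in mutants. They summed to 757.8 to 799.1 CPM in wild type and 799.8 to 817.8 CPM in mutants at 20 °C. At 25 °C the sums were 548.0 to 600.6 CPM and 601.4 to 647.7 CPM. Of 14 early zygotic genes tested, 1 was called higher and 0 lower in mutants at each temperature (edgeR adjusted p under 0.05). Of all genes 7.65% rose and 9.66% fell at 20 °C, and 2.09% and 2.04% at 25 °C. Adult and sperm markers were near 0, with 11 of 15 genes under 10 counts in every library and a summed level of at most 5.40 CPM. The yolk protein gene *vit-2*, the sperm genes *msp-3* and *gsp-3* and the adult collagen gene *col-19* were among these 11.

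*prp-31* (WBGene00022458) is a 4-exon gene on the plus strand of chromosome I (5127828 to 5129611, WBcel235) with 1 annotated transcript and a protein of 504 amino acids. *ccdc-12* (WBGene00022092) has 3 exons and runs from 2495174 down to 2494516 on chromosome IV, minus strand, with 1 transcript and a protein of 169 amino acids. *hrpa-1* (WBGene00001999) is transcribed from the same strand of chromosome IV, from 3338867 down to 3336920, with 10 annotated transcripts that encode proteins of 308 to 347 amino acids. *fbxa-215* is on chromosome IV as well, 11.2 Mb from *ccdc-12* and 10.3 Mb from *hrpa-1*. No other gene held in the count tables overlaps any of the 3 spans. Annotated genes outside those tables were not examined. The deposited values are per gene, so the *hrpa-1* transcripts were not told apart. Salmon divides reads that fit several transcripts: none of the 16 counts of *prp-31* or *ccdc-12* was within 0.01 of a whole number, and 1 of 16 was for *hrpa-1*.

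In all 3 genes the mutant libraries lay above the wild-type libraries, with no overlap at either temperature. Groups of 4 mutant and 4 wild-type libraries that did not overlap, with the mutant higher, were seen in 7.30% of all tested genes at 20 °C and in 6.94% at 25 °C, and 1.20% of the 10382 genes tested at both temperatures had an adjusted p under 0.05 and a rise at both. The choice of the 3 genes fixed their direction, so nothing is read from these shares. In whole embryos, more transcript per cell and more cells of an expressing type cannot be told apart. At 20 °C, *prp-31* was at 224, 240.1, 229.8 and 234.9 CPM in wild-type replicates 1 to 4 and at 506, 514, 517 and 533 CPM in the mutants. At 25 °C it was at 183, 182, 185 and 192 CPM in wild type and at 384, 371, 392 and 402 CPM in the mutants. The lowest mutant library exceeded the highest wild-type library by 266 CPM at 20 °C and by 179 CPM at 25 °C. Mutant over wild type, the log2 fold changes were 1.17 ± 0.04 (SE) and 1.06 ± 0.04, so that *prp-31* transcripts were 2.26 and 2.09 times as abundant. Ranked by log2 fold change, it stood 18 from the top of 10471 tested genes at 20 °C and 13 from the top of 11945 at 25 °C.

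*ccdc-12* showed the next largest difference. At 20 °C it was at 122, 128, 125 and 116 CPM in wild type and at 231, 232, 239 and 226 CPM in the mutants. At 25 °C it was at 90.8, 85.6, 92.4 and 109 CPM in wild type and at 156, 149.8, 160.2 and 165 CPM in the mutants. Wild-type replicate 4 at 25 °C was the highest of its group and still 40.8 CPM below the lowest mutant library. The log2 fold changes were 0.93 ± 0.04 (SE) and 0.74 ± 0.06, 1.91-fold and 1.67-fold, ranking 43 and 49 from the top.

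*hrpa-1* was the most abundant of the 3 genes and had the smallest fold. At 20 °C it was at 1815, 1790.4, 1699 and 1964 CPM in wild type and at 2499, 2488, 2499 and 2587 CPM in the mutants. At 25 °C it was at 1553, 1512, 1505 and 1551 CPM in wild type and at 2025, 1976, 2051 and 2089 CPM in the mutants. The groups were separated by 523 CPM at 20 °C and by 423 CPM at 25 °C. The log2 fold changes were 0.49 ± 0.04 (SE) and 0.41 ± 0.04, 1.40-fold and 1.33-fold, ranking 250 and 254 from the top. In CPM, by contrast, *hrpa-1* had the largest difference. At 20 °C the mutant mean was above the wild-type mean by 701 ± 59.7 CPM (SE) for *hrpa-1*, 285 ± 6.62 CPM for *prp-31* and 109 ± 3.74 CPM for *ccdc-12*. All 3 genes passed the filter on low counts in every comparison.

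**Figure D1:**
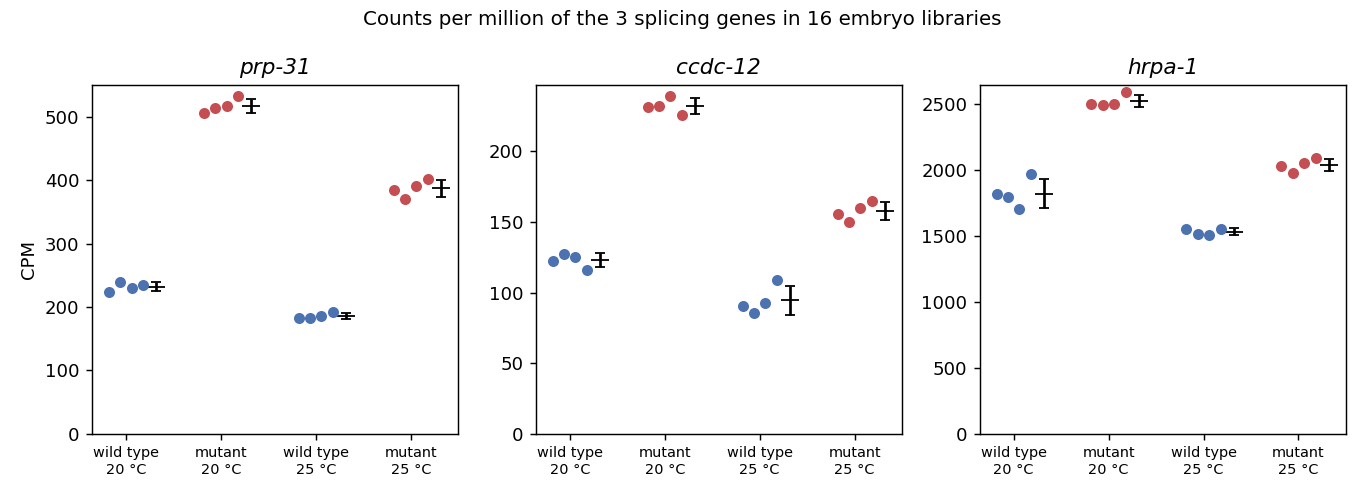
CPM (linear axes from 0) of *prp-31*, *ccdc-12* and *hrpa-1* in each of 16 embryo libraries, in 4 groups of 4; points are libraries, in the order of replicates 1 to 4, and the black mark beside each group is its mean with SD. In each gene the levels order as mutant 20 °C, mutant 25 °C, wild type 20 °C and wild type 25 °C from highest to lowest, with no overlap between neighbouring groups.

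The 4 groups kept one order in all 3 genes. The mutants at 20 °C were highest, followed by the mutants at 25 °C, wild type at 20 °C and wild type at 25 °C, and no 2 neighbouring groups overlapped. Some of the steps were narrow. In *hrpa-1* the lowest mutant library at 25 °C (1976 CPM) was 12 CPM above the highest wild-type library at 20 °C (1964 CPM), a step that was 131 CPM wide in *prp-31* and 22.2 CPM in *ccdc-12*. In *ccdc-12* the lowest wild-type library at 20 °C (116 CPM) was close to the highest at 25 °C (109 CPM). Within groups the coefficient of variation was between 1.64% and 6.06%, except for *ccdc-12* in wild type at 25 °C, where it was 10.7%.

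Per length, counted as CPM per kb of annotated exon, *hrpa-1* stood at 1105 ± 67.0 (SD, n = 4) in wild type at 20 °C, *ccdc-12* at 222 ± 8.86 and *prp-31* at 144 ± 4.34. In mutants at 20 °C the levels, in the same order of genes, were 1532 ± 28, 419.6 ± 10.2 and 321 ± 6.96 CPM per kb. By the mean over all libraries *hrpa-1* ranked 33 among 12081 genes, *ccdc-12* 415 and *prp-31* 559. The proportions between the 3 genes differed between strains. Per length, the ratio of *hrpa-1* to *prp-31* averaged 7.69 ± 0.47 (SD, n = 4) in wild-type and 4.78 ± 0.05 in mutant libraries at 20 °C, and 8.10 ± 0.19 and 5.16 ± 0.05 at 25 °C. The ratio of *prp-31* to *ccdc-12* was 0.65 ± 0.03 in wild type and 0.76 ± 0.03 in mutants at 20 °C, and 0.68 ± 0.05 and 0.84 ± 0.01 at 25 °C.

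The fitted genotype effect was smaller at 25 °C in each gene. The log2 fold change at 25 °C minus that at 20 °C, fitted on all 16 libraries, was -0.14 for *prp-31* (95% interval -0.26 to -0.03), -0.22 for *ccdc-12* (-0.38 to -0.07) and -0.11 for *hrpa-1* (-0.23 to 0.01). Over all genes 1.16% of 12117 passed the test of this difference. These sizes rest on the comparisons that chose the genes and carry no test. They depended on the scaling: RLE scaling and DESeq2 each gave -0.11 for *prp-31*, -0.19 for *ccdc-12* and -0.07 for *hrpa-1*. By limma-voom they were -0.14, -0.22 and -0.11. Leaving out wild-type replicate 4 at 25 °C, the library high in *ccdc-12*, brought the *ccdc-12* value to -0.14, and leaving out wild-type replicate 2 at 20 °C brought that of *hrpa-1* to -0.05.

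Because the stage markers differed between strains, the 3 genes were also fitted with a stage score per library as a covariate. The score subtracts the average of the maternal markers, in log2 CPM, from that of the late differentiation markers. It was lower in mutants by 0.36 on average at 20 °C (exact two-sided permutation test, p = 0.0571, groups overlapping) and by 0.33 at 25 °C (p = 0.0286, the smallest that 4 against 4 libraries allow; all 4 mutant libraries below all 4 wild-type libraries). Of the late markers 12 of 18 tested fell and 1 rose in mutants at 20 °C, and 3 of 20 fell at 25 °C, where 9.66% and 2.04% of all genes fell. Of the 20 maternal markers 2 rose and 3 fell at 20 °C, and 7 rose at 25 °C, where 7.65% and 2.09% of all genes rose. With the covariate the log2 fold changes at 20 °C were 1.14 ± 0.06 (SE) for *prp-31*, 0.90 ± 0.06 for *ccdc-12* and 0.52 ± 0.06 for *hrpa-1*. At 25 °C they were 0.98 ± 0.08, 0.57 ± 0.11 and 0.35 ± 0.07, where the SE without the covariate were 0.04, 0.06 and 0.04. Because the score separated the strains at 25 °C, its effect and that of genotype cannot be fully told apart there.

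Temperature was compared within each strain, a comparison the choice of genes did not use. All 3 genes were lower in the 25 °C batch than in the 20 °C batch, in wild type and in mutants, and in each case the 4 libraries of one batch lay below all 4 of the other. In wild type the log2 fold change, 25 °C over 20 °C, was -0.28 ± 0.05 (SE) for *prp-31*, -0.33 ± 0.07 for *ccdc-12* and -0.20 ± 0.05 for *hrpa-1*, with edgeR adjusted p of 8.72e-05, 0.000397 and 0.00342. In mutants it was -0.38 ± 0.03, -0.52 ± 0.03 and -0.27 ± 0.03, with adjusted p of 1.68e-10, 6.47e-13 and 3.99e-09. A fall between the batches was common, at an adjusted p under 0.05 in 31.3% of 11579 genes in wild type and in 33.0% of 11558 genes in mutants. Separated groups with lower libraries at 25 °C were seen in 32.7% and 33.7% of genes. Most other splicing genes fell too. Of 111 tested splicing genes other than these 3, 75 were lower and 8 higher at 25 °C in wild type, and 80 lower and 11 higher in mutants, while 34.8% and 36.3% of all genes were higher. The median log2 fold change of these 111 was -0.20 in wild type and -0.18 in mutants. In both strains *prp-31* and *ccdc-12* fell by more than the median. *hrpa-1* did so in mutants and was level with the median in wild type. The summed late differentiation markers were about 2 times as high in the 25 °C batch, and their part in these falls was not tested.

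**Figure D2:**
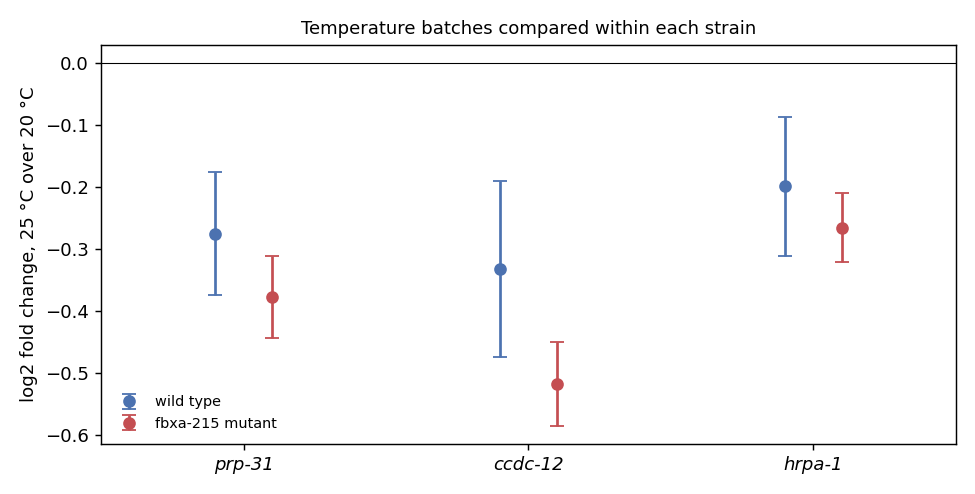
Log2 fold change, 25 °C over 20 °C, of the 3 genes in wild type and in mutants (linear axis); points are edgeR estimates from 8 libraries each and bars are 95% intervals. All 6 estimates lie below 0, between -0.20 and -0.52.

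Other genes of the pathway were taken from a list of splicing genes grouped by role, without the 3 above. Of 120 listed genes 111 were found in the tables, and all 111 were tested at each temperature. At 20 °C, 19 rose and 7 fell in mutants at an edgeR adjusted p under 0.05, 17.1% and 6.31% of the list, against 7.65% and 9.66% of all tested genes. At 25 °C, 11 rose (9.91% of the list, against 2.09% of all genes) and 0 fell (against 2.04%). By DESeq2 and by limma-voom 0 fell as well, and 1 had an unadjusted p under 0.05 and a lower level. The median log2 fold change of the list was 0.06 at each temperature, beside 0.0015 and -0.0023 for all genes. A fold change of 2 was passed by 0 of the 111 at either temperature, with edgeR, DESeq2 or limma-voom and with or without adjustment of p. Over all genes 0.267% rose and 0.860% fell by more than 2-fold at 20 °C at an adjusted p under 0.05, and 0.0670% and 0.251% at 25 °C. The largest rise in the list was 0.40 on the log2 scale at 20 °C and 0.38 at 25 °C, below the values of *prp-31*, *ccdc-12* and *hrpa-1*. Those 3 were chosen for their rise, so nothing is read from their place above the list. At 25 °C the step was small, 0.41 ± 0.04 (SE) for *hrpa-1* beside 0.38 ± 0.05 for *hrpu-2*. With the stage score as a covariate at 25 °C, *hrpu-2* was at 0.49 and *hrpa-1* at 0.35.

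With the stage score as a covariate 3 list genes rose at 20 °C and 0 at 25 °C, and 0 fell at either temperature, where 1.52% and 0.0335% of all tested genes rose and 1.13% and 0.0502% fell. The median log2 fold change of the list was then 0.063 at 20 °C, beside 0.055 without the covariate, and 0.015 at 25 °C, beside 0.056. Without the covariate, the number of rises at 25 °C rested on single libraries, as it did over all genes. It was 6, 7 and 17 without wild-type replicate 1, 2 and 4, where 1.04%, 1.46% and 3.17% of all genes rose. Without mutant replicate 1, 3 and 4 it was 4, 5 and 3, beside 0.670%, 1.02% and 0.546%. At 20 °C the number that fell was 3 and 4 without wild-type replicate 1 and 4 (7.01% and 8.96% of all genes). It was 3 and 2 without mutant replicate 2 and 3 (6.70% and 6.87%).

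Among the core proteins of the snRNP rings, the Sm and LSm genes, 8 of 14 rose at 20 °C (57.1%) and 1 at 25 °C (7.14%). Over all genes 7.65% rose at 20 °C and 2.09% at 25 °C. *snr-4*, an Sm protein gene, rose at both temperatures, from 312 ± 16.8 to 367 ± 11.8 CPM (SD, n = 4) at 20 °C and from 220.1 ± 6.65 to 256 ± 8.35 CPM at 25 °C (edgeR adjusted p of 0.000252 and 0.0145). *snr-7*, another Sm gene, had a log2 fold change of 0.29 ± 0.09 (SE) at 20 °C (adjusted p = 0.0212) and 0.07 ± 0.09 at 25 °C (adjusted p = 0.682). Its call at 20 °C held in 4 of the 8 fits that left out 1 library (adjusted p up to 0.0817).

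Of the U1 and U2 genes 2 of 17 rose and 2 fell at 20 °C, and 1 rose at 25 °C. These are 11.8%, 11.8% and 5.88%, beside 7.65%, 9.66% and 2.09% of all genes, and nothing is read from them. The gene that rose at both temperatures was *sftb-2*, which encodes a subunit of the SF3b complex of the U2 particle. It went from 459.8 ± 9.69 to 598 ± 12.4 CPM at 20 °C and from 381 ± 9.64 to 481 ± 14.0 CPM at 25 °C. Its log2 fold change was 0.40 ± 0.03 and 0.33 ± 0.04, with adjusted p of 5.62e-08 and 0.000504, and its call held in all 8 fits that left out 1 library at each temperature.

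In the U4/U6.U5 tri-snRNP, the particle that *prp-31* belongs to, 5 of 15 genes rose and 1 fell at 20 °C, and 2 rose at 25 °C. These are 33.3%, 6.67% and 13.3%, beside 7.65%, 9.66% and 2.09% of all genes. *eftu-2*, the GTPase of the U5 particle, had log2 fold changes of 0.13 ± 0.03 (SE) and 0.19 ± 0.04 with adjusted p of 0.00980 and 0.0267. *snu-66*, the gene of a tri-snRNP protein, had 0.18 ± 0.03 and 0.17 ± 0.04 with adjusted p of 0.000955 and 0.0223. *sart-3*, whose human homologue helps U4/U6 to reassemble, had 0.27 ± 0.04 at 20 °C (adjusted p = 0.000135) and 0.13 ± 0.06 at 25 °C (adjusted p = 0.204). The rise of *prp-31* in the same libraries was 2.26-fold and 2.09-fold. It was chosen for that rise, so nothing is read from its place above these genes.

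Among the genes of activation and catalysis, the part of the machinery in which the human homologue of *ccdc-12* acts, 3 of 26 rose at 20 °C and 4 at 25 °C, and 0 fell by edgeR. *ddx-23*, the homologue of the Prp28 helicase, had log2 fold changes of 0.27 ± 0.04 (SE) and 0.22 ± 0.04 with adjusted p of 2.29e-05 and 0.0117. *prp-17*, a factor of the second catalytic step, had 0.16 ± 0.04 and 0.24 ± 0.04 with adjusted p of 0.00823 and 0.00731.

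Among the regulators, 0 of 9 SR protein and kinase genes passed the test at either temperature, too few genes to read anything from the count. Of 30 genes for hnRNP and other RNA-binding proteins, the group closest to *hrpa-1*, 1 rose and 4 fell at 20 °C and 3 rose at 25 °C. These are 3.33%, 13.3% and 10%, beside 7.65%, 9.66% and 2.09% of all genes. *hel-1*, the homologue of the UAP56 helicase, rose from 1635 ± 44.8 to 1947 ± 43.5 CPM at 20 °C and from 1347 ± 25.5 to 1539 ± 32 CPM at 25 °C, with adjusted p of 3.57e-06 and 0.0146. *hrpu-2*, an hnRNP U homologue, had a log2 fold change of 0.07 ± 0.04 (SE) at 20 °C (adjusted p = 0.232) and 0.38 ± 0.05 at 25 °C (adjusted p = 0.000673). The largest falls at 20 °C were in *mbl-1*, the muscleblind gene (-0.75 ± 0.21, adjusted p = 0.0145), in *exc-7*, an ELAV homologue (-0.60 ± 0.10, adjusted p = 0.000215), and in *unc-75*, a neuronal CELF gene (-0.46 ± 0.08, adjusted p = 0.000370). These 3 genes were higher at 25 °C than at 20 °C in wild type, by 2.00, 1.39 and 0.80 on the log2 scale, as were the late differentiation markers. The part of embryo stage in their falls was not tested. The call of *mbl-1* was lost without 1 of the 8 libraries (adjusted p up to 0.0578). Its level at 20 °C was low, 2.97 ± 0.27 CPM in wild type and 1.74 ± 0.35 CPM in mutants. Between strains at 25 °C *mbl-1*, *exc-7* and *unc-75* had -0.09 ± 0.14 (SE), -0.15 ± 0.09 and 0.02 ± 0.10 (edgeR adjusted p of 0.748, 0.329 and 0.921). With the stage covariate they had -0.45, -0.43 and -0.17 at 20 °C (adjusted p of 0.529, 0.147 and 0.457). At 25 °C they then had 0.41, 0.19 and 0.50 (edgeR adjusted p of 0.478, 0.576 and 0.240).

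In all, 7 list genes passed the edgeR test at each temperature with the same direction, and all 7 rose: *sftb-2*, *hel-1*, *ddx-23*, *snr-4*, *prp-17*, *snu-66* and *eftu-2*. Over all genes 1.20% rose and 0.790% fell at both temperatures in this sense. At 25 °C, leaving out 1 library kept the call in 3 of 8 fits for *eftu-2* and *snu-66*, in 5 for *hel-1*, in 6 for *snr-4* and in 7 for *ddx-23*, and in all 8 for *sftb-2* and *prp-17*. The stage score separated the strains at 25 °C, so a call lost with it as a covariate does not tell stage from genotype. Over all genes 0.0335% rose there with the covariate, against 2.09% without. With the stage covariate at 25 °C, 0 of the 7 passed the edgeR test (adjusted p from 0.240 for *sftb-2* to 0.606 for *eftu-2*), while their log2 fold changes stayed above 0. They were 0.28 for *sftb-2*, 0.19 for *prp-17*, 0.16 for *snu-66*, 0.15 for *hel-1*, 0.12 for *ddx-23* and 0.11 for *snr-4* and *eftu-2*.

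**Figure D3:**
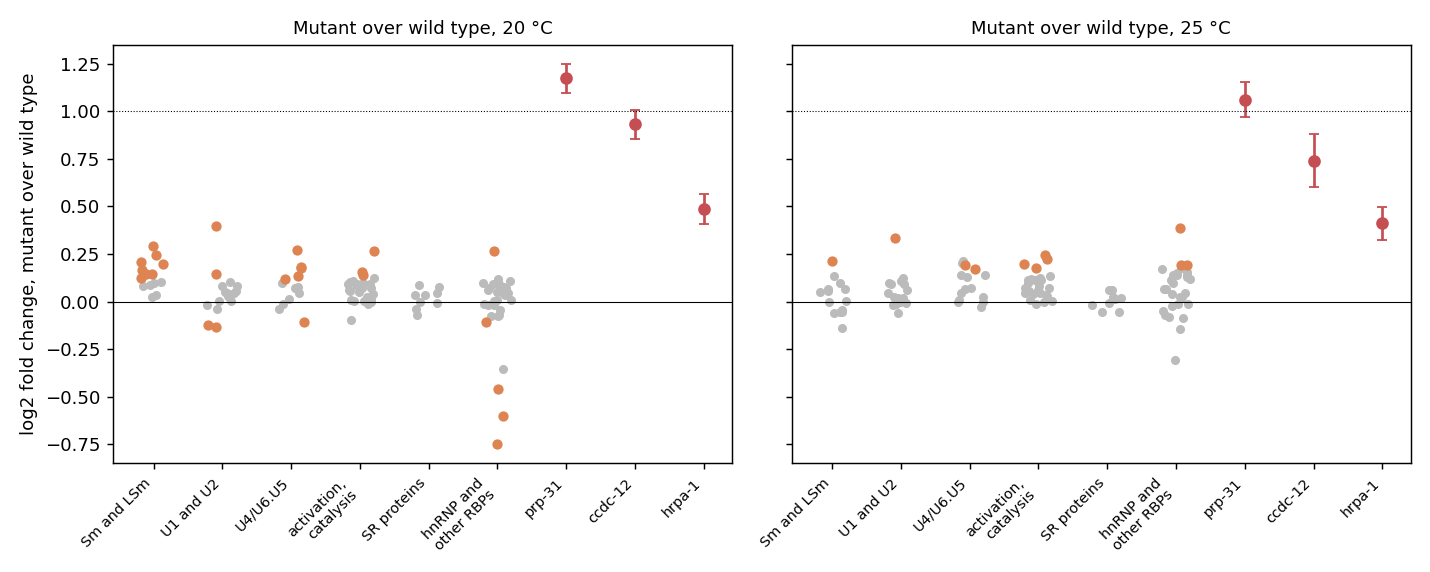
Log2 fold change, mutant over wild type, at 20 °C (left) and 25 °C (right) for 111 splicing genes in 6 groups by role (grey, adjusted p of 0.05 or above; orange, under 0.05) and for *prp-31*, *ccdc-12* and *hrpa-1* (red, with 95% intervals; shown without a test); horizontal jitter within a group has no meaning, and the dotted line marks a fold of 2. The highest list gene is at 0.40 and 0.38. The 3 genes on the right of each panel were chosen for their rise and lie above it.

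The nearest genes on each side of the members, among those held in the count tables, were read in the same libraries. *Y110A7A.7* (WBGene00022457), 133 bp beyond the end of *prp-31* on the same strand, was at 20.4 ± 1.72 CPM in wild type and 23 ± 2.01 CPM in mutants at 20 °C (SD, n = 4; log2 fold change 0.19 ± 0.08 SE, edgeR adjusted p = 0.0961), and at 26.4 ± 2.49 and 25.8 ± 1.60 CPM at 25 °C (adjusted p = 0.815). *mat-1* (WBGene00003132), a gene of the anaphase-promoting complex on the other side of *prp-31*, had a log2 fold change of 0.03 ± 0.03 at 20 °C and 0.12 ± 0.04 at 25 °C (adjusted p of 0.632 and 0.129), with mutant libraries above all wild-type libraries at 25 °C. *F42A6.6* (WBGene00018328), 46 bp from *hrpa-1* on the same strand, had 0.03 ± 0.07 and 0.02 ± 0.08 (adjusted p of 0.770 and 0.940). On its other side the pseudogene WBGene00018329 was at 1.17 to 1.83 CPM on average and had an adjusted p of 0.850 and 0.736.

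Beside *ccdc-12*, *Y69A2AR.18* (WBGene00022089) had a log2 fold change of -0.03 ± 0.04 and -0.06 ± 0.04 (adjusted p of 0.558 and 0.457). *Y69A2AR.19* (WBGene00022090), on the other side, was at 0.449 to 0.998 CPM on average, too low to be tested at 20 °C, and had a log2 fold change of 0.77 ± 0.32 (SE) at 25 °C (adjusted p = 0.178), beside 0.74 ± 0.06 for *ccdc-12*. By edgeR, 0 of these 6 neighbours had an adjusted p under 0.05 between strains. Over all genes 7.65% rose and 9.66% fell at 20 °C at this threshold, and 2.09% and 2.04% at 25 °C. At an unadjusted p under 0.05, 3 of the neighbours passed at 1 temperature each, *Y110A7A.7* at 20 °C and *mat-1* and *Y69A2AR.19* at 25 °C. The share of all genes at this unadjusted threshold is not given here, so nothing is read from that count.

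The genes most like the members were found by Pearson's r of log2 CPM, each gene centred on its mean at each temperature, over 16 libraries and 12116 other genes. The 3 genes most like *prp-31* were *gid-8* (r = 0.991), whose human homologue is a subunit of the CTLH ubiquitin ligase, *taf-11.1* (r = 0.990), a homologue of a TFIID subunit, and *sftb-2* (r = 0.987). Those most like *ccdc-12* were *taf-11.1* (0.987), *prp-31* (0.987) and *R02F11.4* (0.980). Those most like *hrpa-1* were *prp-31* (0.985), *sftb-2* (0.980) and *gid-8* (0.978). All libraries of a strain share their strain difference, which these genes were picked for, and r is given as a description.

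The folds of these genes differed. *gid-8* went from 77.2 to 123 CPM at 20 °C and from 78.3 to 130.5 CPM at 25 °C, log2 fold changes of 0.69 ± 0.04 (SE) and 0.74 ± 0.04. *taf-11.1* went from 104 to 152 CPM and from 81.6 to 115 CPM, log2 fold changes of 0.56 ± 0.04 and 0.50 ± 0.05. *R02F11.4* had 0.46 ± 0.04 and 0.41 ± 0.04. Between the members r was 0.987 for *prp-31* and *ccdc-12*, 0.985 for *prp-31* and *hrpa-1* and 0.963 for *ccdc-12* and *hrpa-1*. Once each gene was centred on the mean of its own group instead, leaving only the variation among replicates, r was 0.56, 0.44 and -0.06.

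**Figure D4:**
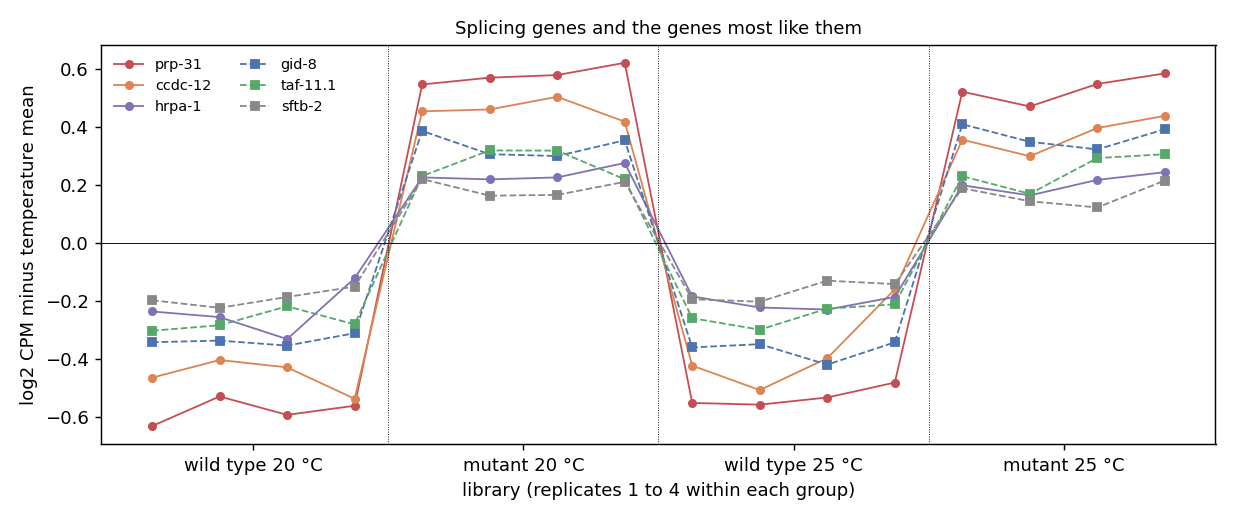
Log2 CPM minus the gene's mean at that temperature, in 16 libraries ordered by group and replicate, for the 3 splicing genes (solid lines, circles) and 3 of the genes most like them (dashed lines, squares); lines join libraries only to guide the eye. Every gene shown is below 0 in all wild-type libraries and above 0 in all mutant libraries, and the step is largest in *prp-31* and smallest in *sftb-2* and *hrpa-1*.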

How the data were processed

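Polyadenylated RNA was sequenced from non-directional libraries as pairs of 150 bases, which keep no strand. Per the labels and methods, the authors ran Trimmomatic (v0.39) and then Salmon (v1.5.1) with bias correction, and deposited estimated counts per gene, which were rounded here to whole numbers for the count models. The transcriptome release is not given in the sources used here. The authors' deposited log2 values served only to check columns: all 16 count columns matched their own log2 column best. Their strain comparisons were not used.

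CPM were scaled by TMM factors over all 16 libraries. Fits used edgeR (v4.0.16, R v4.3.3), the quasi-likelihood test after filterByExpr and TMM on the libraries compared, with Benjamini-Hochberg adjustment over all genes tested and no covariates. Standard errors came from the F statistic. The alternatives were RLE and upper-quartile scaling, no filter, limma-voom (v3.58.1), DESeq2 (v1.42.0), a replicate block, all 16 libraries in one fit, the stage score as a covariate and each library left out. Fits were tested on simulated data. Coordinates are 1-based in WBcel235 (Ensembl annotation), the build of the submitters' processing notes. Of 21882 genes 21714 were in it. The closest pair of replicates differed by more than sampling noise (chi-square per degree of freedom of 2.03), so all 16 libraries were kept apart. The members and lists were chosen with earlier results of these data known. Named genes were the members, *fbxa-215*, the nearest genes, the 3 genes most correlated with each member, list genes called at both temperatures (at most 12), and the 3 largest rises and 3 largest falls called at each temperature.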

Additional observations from a re-analysis of the deposited data

Results flagged for a closer look

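In 3 of 18 groups of 4 libraries examined for a library far from the other 3, the gap exceeded the 95% limit of Dixon's test, which chance exceeds in about 1 in 20 groups. *hrpa-1* was at 2587 CPM in 1 mutant library at 20 °C, above 2488 to 2499 CPM in the other 3. The stage score was -2.29 in the highest mutant library at 20 °C and -2.37 in the lowest wild-type library at 20 °C. Among the splicing genes named, *hrpu-2* had a genotype effect that differed between temperatures, with a log2 fold change at 25 °C minus that at 20 °C of 0.28 (edgeR interaction, adjusted p = 0.0327, 1.16% of 12117 genes passing).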

How the results depend on the processing

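The log2 fold changes of *prp-31*, *ccdc-12* and *hrpa-1* kept their sign in every alternative run, and the falls between temperature batches kept an adjusted p under 0.05 by edgeR, DESeq2 and limma-voom (at most 0.0345). With the stage score as a covariate the mutant over wild-type values at 25 °C were 0.98, 0.57 and 0.35, and the splicing list held 3 rises and 0 falls at 20 °C and 0 rises at 25 °C, with a median log2 fold change of 0.0628 and 0.0154 (0.0553 and 0.0562 without the covariate). With upper-quartile scaling 7 rose at 25 °C, where 1.35% of all genes rose, and the median was 0.0293. With all 16 libraries in one fit 3 fell at 20 °C and 1 at 25 °C, and the median at 25 °C was 0.0310. In that fit 7.20% and 3.94% of all genes fell. Without a filter the *prp-31* difference between temperatures was -0.095. The cause of these shifts was not tested. The stage score separated the strains at 25 °C, and 0.0335% of all genes rose there with it as a covariate. Leaving out single libraries gave 2 to 6 falls at 20 °C, 3 to 17 rises and 0 to 1 falls at 25 °C and a median of 0.0365 to 0.0703 there. Over all genes 6.70% to 9.20% fell at 20 °C in these fits. At 25 °C 0.546% to 3.17% of all genes rose and 0.554% to 3.81% fell. The difference between temperatures then ran from -0.26 to -0.14 for *ccdc-12* and from -0.14 to -0.052 for *hrpa-1*. With a library left out 202 values kept their call or stayed within the replicate spread and 14 did not, and under the other settings 135 did and 15 did not.

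Same-numbered libraries of the strains shared little deviation (r of 0.015 to 0.073 at 20 °C and -0.015 to 0.062 at 25 °C), and replicate numbers were not taken as pairs. A replicate block gave 7 rises and 1 fall at 25 °C in the splicing list, 20 rises and 7 falls at 20 °C, and changed no call of the 3 genes between batches. Over all genes the block gave 1.60% rises and 2.26% falls at 25 °C, and 8.41% and 10.6% at 20 °C. At 25 °C 0 of 4 replicates, and at 20 °C 3 of 4, were most like their own number.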
